A study of Mus musculus with 12 samples.

Results

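A set of 8 genes widely used as markers of stem cells, namely Nanog, Pou5f1, Sox2, Klf4, Bmi1, Lin28a, Msi1 and Nes, were followed across the fractions of a mouse lung tumour line. All probe sets that the array annotation pairs with only 1 of these symbols were taken, which gave 15 of the 34958 probe sets with a single symbol, and all 8 of the symbols were found among 18194 measured genes. For each gene the probe set with the highest mean over the 12 arrays was its lead probe set. The rule names the genes by symbol, and levels on these arrays enter it only through the choice of the lead probe set. The genes were nonetheless chosen with earlier results of these data known.

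Pou5f1 (Oct4), Sox2 and Nanog are transcription factors that bind many of the same enhancers and keep embryonic stem cells pluripotent, and Klf4 joins Pou5f1 and Sox2 in reprogramming somatic cells. Bmi1 belongs to Polycomb repressive complex 1 and keeps adult stem cells dividing by repressing the Cdkn2a locus, while Lin28a is an RNA-binding protein that blocks maturation of let-7 microRNAs. Msi1 (Musashi) is an RNA-binding protein and Nes (nestin) an intermediate filament protein, both best known from neural progenitors.

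Transcript levels were measured in A2C12, a single line grown from a lung tumour of a C57BL/6 mouse with c-raf and c-myc transgenes, both of which every group carries. Flow sorting after Hoechst staining gave the side population (SP), which retains little of this DNA dye because membrane pumps export it, and the other, non-SP cells. Hoechst was added with or without reserpine at 50 µmol/l, a blocker of such pumps, and which of the sorted cells had received it is not stated. The study asks how these fractions differ and how each responds to antibody against the epithelial adhesion protein EpCAM. The 4 groups were SP anti-EpCAM and non-SP anti-EpCAM, given a monoclonal antibody at 100 µg/ml for 48 h, and SP untreated and non-SP untreated, which received none. Each had 3 biological replicates on Affymetrix mouse genome arrays, and precision is limited by this number. Nothing says that replicates came from separate cultures, so p-values measure the spread between these samples.

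Values are on the log2 scale, where 1 unit is 2-fold. With no detection calls used, the background level was set at 5.88, the 95th percentile of the levels of 74 olfactory, vomeronasal and bitter taste receptor genes, which are taken as not expressed in lung tumour cells. A gene at or under it is called at background, which does not show that the transcript is absent. Of all 18194 genes, 11545 (63.5%) had a mean above this level. Levels of different probe sets are not set against each other, since each probe set has its own affinity.

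Several facts of the whole series bear on the genes described here. Array medians ran from 5.72 to 6.06. Of 12 lung epithelium markers, 6 lay above background, among them Foxa2, Abca3, Epcam and Sftpb, whereas others, such as Nkx2-1 and Sftpc, were at background. Of 8 leukocyte markers 5 had a mean above background, among them Csf1r at 9.98, Cd14 at 8.94, Cd68 at 7.33 and Cd3e at 6.76. Ptprc, Itgam and Cd79a were at background, and endothelial markers were above it in 1 of 6. Of 8 fibroblast markers 6 were above background, and their mean ranged from 9.14 to 9.60 in SP anti-EpCAM, 9.25 to 9.47 in non-SP anti-EpCAM, 9.27 to 9.47 in SP untreated and 9.43 to 9.54 in non-SP untreated arrays. The part of other cell types in the results was not tested. On the 2 anti-EpCAM arrays numbered 2, the 3′ minus 5′ difference of the actin control probe sets was 1.03 in SP and 0.89 in non-SP cells, against at most 0.73 on the other arrays. In each of the 6 pairs of an SP and a non-SP array with the same number and treatment, 914 to 2000 of 45101 probe sets held exactly the same deposited value, against 0 to 4 in the other 60 pairs of arrays. These identical values had a median level of 4.17 to 4.67, thus below the background level. The source of the identical values was not tested. Each pair lies within a single treatment, so anti-EpCAM against untreated compares arrays of different pairs. Any processing by pair would enter into that comparison.

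The pluripotency core was at background. By their lead probe sets, Nanog, Pou5f1, Sox2 and Lin28a lay under 5.88 on all 12 arrays, whereas Klf4, Bmi1 and Nes lay above it. Msi1 was at the border, with a mean of 5.94 and 7 of 12 arrays above the level. Of the 8 genes, 4 thus had a mean above background.

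**Figure D1:**
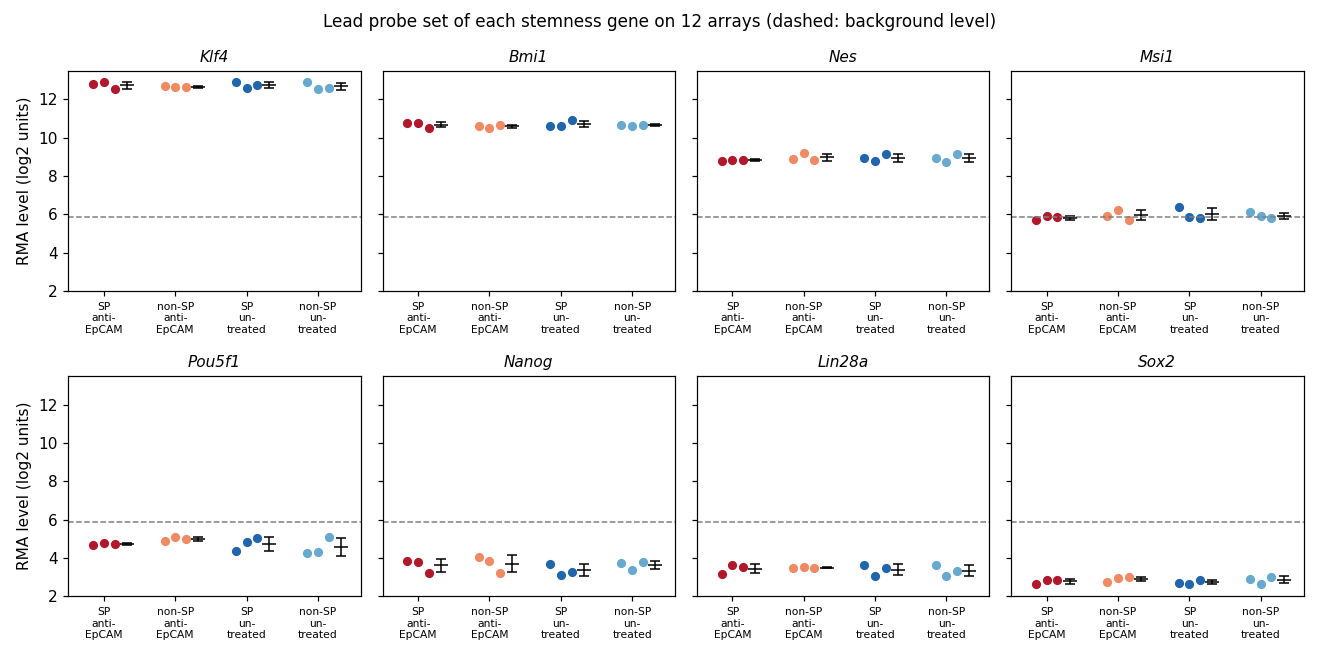
Log2 level of the lead probe set of each of the 8 genes, with a point for each array, the groups in separate colours bars for the group mean and SD, and the background level of 5.88 as a dashed line. Klf4, Bmi1 and Nes lie above the line on all 12 arrays, Msi1 on 7 of 12, and Nanog, Pou5f1, Sox2 and Lin28a on none.

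Nanog, the homeodomain factor of the pluripotent state, was read by 1 probe set. Its level was 3.86, 3.77 and 3.20 in SP anti-EpCAM, 4.04, 3.85 and 3.20 in non-SP anti-EpCAM, 3.70, 3.10 and 3.28 in SP untreated and 3.74, 3.36 and 3.78 in non-SP untreated cells. The groups overlapped, and the highest array, at 4.04, was still under background. In the SP minus non-SP pairs the value was lower in 5 and identical in 1, with an exact two-sided sign-flip permutation p of 0.0625, but no difference is drawn from values at background.

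Pou5f1, the octamer-binding factor of this core, stood at 4.66, 4.77 and 4.75 in SP anti-EpCAM, 4.89, 5.10 and 4.99 in non-SP anti-EpCAM, 4.34, 4.82 and 5.02 in SP untreated and 4.29, 4.33 and 5.10 in non-SP untreated cells. The SP anti-EpCAM arrays lay below all 3 non-SP anti-EpCAM arrays. The same fractions of untreated cells overlapped, and over the 6 pairs the exact permutation p was 0.625. Among the lead probe sets of the 8 genes, Pou5f1 also had the lowest unadjusted p in the 7 comparisons described further on. It was 0.0879 for anti-EpCAM against untreated non-SP cells in limma, with an adjusted p of 0.988.

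Sox2, which pairs with Pou5f1 on DNA, ranged from 2.62 to 2.87 in SP anti-EpCAM, 2.77 to 2.99 in non-SP anti-EpCAM, 2.66 to 2.86 in SP untreated and 2.66 to 3.01 in non-SP untreated cells. It was lower in SP in 5 pairs and identical in 1 (exact permutation p = 0.0625). Lin28a ranged from 3.16 to 3.63 in SP anti-EpCAM, 3.46 to 3.53 in non-SP anti-EpCAM, 3.06 to 3.62 in SP untreated and 3.06 to 3.62 in non-SP untreated cells. Its SP and non-SP values were identical in 2 pairs (exact permutation p = 1), and its other probe set was at background too, with a mean of 3.37. Neither gene reached the background level on any array.

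The place of Pou5f1 among genes at background depended on where that level was drawn. With the median of the receptor genes, 4.26, or the highest tryptophan-gene control probe set, 3.68, as the level, Pou5f1 had a mean above it and 5 of the 8 genes did. With the 99th percentile of the receptor genes, 6.42, Msi1 dropped under it and 3 remained, Klf4, Bmi1 and Nes. Nanog, Sox2 and Lin28a were under all of these levels.

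The promoters of 4 of these genes, one pair read above background and one pair under it, show how the sequences at their starts differ in CG dinucleotides and factor motifs. Each runs from 250 bases before to 50 after the annotated start in RefSeq, build GRCm38.p6, read 5′ to 3′ along the gene. Capitals mark CG dinucleotides in the first 3, and in Nanog the match to the octamer core and the match to the Sox motif beside it. Klf4 is from chr4:55532426-55532725 (minus strand), Bmi1 from chr2:18676768-18677067 (plus strand), Pou5f1 from chr17:35505782-35506081 (plus strand) and Nanog from chr6:122707239-122707538 (plus strand).
Klf4: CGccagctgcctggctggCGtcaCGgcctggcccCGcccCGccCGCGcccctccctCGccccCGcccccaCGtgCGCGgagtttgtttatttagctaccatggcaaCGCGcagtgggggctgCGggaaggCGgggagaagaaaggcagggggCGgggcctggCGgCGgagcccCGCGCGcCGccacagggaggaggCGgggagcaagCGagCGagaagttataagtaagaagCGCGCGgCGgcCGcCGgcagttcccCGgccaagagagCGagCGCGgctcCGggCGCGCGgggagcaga
Bmi1: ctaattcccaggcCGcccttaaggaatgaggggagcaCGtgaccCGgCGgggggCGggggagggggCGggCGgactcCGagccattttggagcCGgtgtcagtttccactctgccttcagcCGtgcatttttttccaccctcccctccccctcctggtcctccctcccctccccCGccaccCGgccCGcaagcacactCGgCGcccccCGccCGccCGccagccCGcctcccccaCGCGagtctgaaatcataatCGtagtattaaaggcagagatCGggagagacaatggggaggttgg
Pou5f1: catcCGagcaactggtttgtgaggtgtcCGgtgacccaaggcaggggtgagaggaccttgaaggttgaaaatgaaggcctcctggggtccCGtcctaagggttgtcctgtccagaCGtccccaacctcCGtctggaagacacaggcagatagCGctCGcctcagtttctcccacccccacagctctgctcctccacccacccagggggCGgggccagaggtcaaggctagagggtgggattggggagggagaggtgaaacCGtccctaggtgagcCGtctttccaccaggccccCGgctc
Nanog: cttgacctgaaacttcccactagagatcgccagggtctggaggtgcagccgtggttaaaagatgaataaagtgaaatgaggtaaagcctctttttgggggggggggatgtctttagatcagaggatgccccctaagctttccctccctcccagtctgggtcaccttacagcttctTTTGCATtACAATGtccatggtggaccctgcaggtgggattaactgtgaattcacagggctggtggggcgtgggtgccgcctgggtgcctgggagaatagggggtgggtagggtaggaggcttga

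The Klf4 promoter held 40 CG dinucleotides and that of Bmi1 23, while Pou5f1 had 11 and Nanog 4. RefSeq promoters were matched for 7 of the 8 genes. The median was 21 in 9356 measured genes above background and 6 in 5097 at background. The first pair thus lay above and Nanog below the median of its class. Pou5f1, by the window shown, lay between both medians, while a window at another annotated start of it held 6. Sox2, at background, had 27, more than Bmi1, and Lin28a 10, while Nes had 18. These counts are a description, and CG content was not compared with level within any condition.

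Motifs were searched on both strands as the octamer core ATGCAAA, the Sox motif CATTGT and the GC box GGGCGG bound by Sp and Klf factors. In Nanog the octamer core lies at -75 and the Sox motif at -67 from the annotated start, both read on the opposite strand in the sequence above, and they do not overlap. In the first windows of the other genes matched, the octamer core was also in Sox2 at -99, and the Sox motif in Bmi1 at 34 and Lin28a at -96. The windows at another annotated start held a Sox motif at -158 in Pou5f1. In Nanog they held the octamer core at -151 and the Sox motif at -143. The octamer core was in 3.76% and the Sox motif in 9.27% of all 14453 promoters. GC boxes numbered 4 in Klf4, 6 in Bmi1, 1 in Pou5f1 and none of these letters stood in the Nanog window, and the box was in 54.0% of all promoters. A match is not a binding site, and no binding was measured here.

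Klf4, a zinc finger factor active in epithelia as well as in reprogramming, had a mean of 12.7. Its level was 12.78, 12.90 and 12.54 in SP anti-EpCAM, against 12.70, 12.63 and 12.64 in non-SP anti-EpCAM cells. In untreated cells it was 12.91, 12.58 and 12.76 in SP, against 12.92, 12.55 and 12.58 in non-SP cells. The groups overlapped in both treatments.

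The SP minus non-SP difference of Klf4 was 0.08 log2 units after anti-EpCAM (95% interval -0.27 to 0.43) and 0.07 without it (-0.28 to 0.42). Anti-EpCAM minus untreated, it was -0.01 in SP (-0.36 to 0.34) and -0.02 in non-SP cells (-0.37 to 0.33). None of these passed the test, limma across all genes with Benjamini-Hochberg adjustment at 0.05. In bulk RNA, fewer cells that express a gene and less RNA per cell cannot be told apart.

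Bmi1, the Polycomb subunit, had 10.77, 10.78 and 10.53 in SP anti-EpCAM, against 10.59, 10.51 and 10.69 in non-SP anti-EpCAM cells. In untreated cells it had 10.64, 10.61 and 10.93 in SP, against 10.68, 10.60 and 10.69 in non-SP cells. All 12 arrays lay within less than 1 log2 unit and the groups overlapped. The SP minus non-SP difference was 0.09 after anti-EpCAM (-0.23 to 0.41) and 0.07 without it (-0.25 to 0.39), and anti-EpCAM minus untreated it was -0.03 in SP (-0.36 to 0.29) and -0.05 in non-SP cells (-0.38 to 0.27).

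Nes, the filament protein of neural progenitors, had 8.81, 8.86 and 8.86 in SP anti-EpCAM, against 8.88, 9.20 and 8.84 in non-SP anti-EpCAM cells. In untreated cells it had 8.92, 8.76 and 9.14 in SP, against 8.94, 8.73 and 9.15 in non-SP cells. The non-SP anti-EpCAM array numbered 2 was the highest of all. The SP minus non-SP difference was -0.13 after anti-EpCAM (-0.49 to 0.23), or -0.022 without that array, and 0.00 without it (-0.36 to 0.36), and anti-EpCAM minus untreated it was -0.10 in SP (-0.46 to 0.26) and 0.03 in non-SP cells (-0.33 to 0.39).

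Msi1, which represses translation of Numb, had 5.71, 5.89 and 5.89 in SP anti-EpCAM, against 5.93, 6.25 and 5.70 in non-SP anti-EpCAM cells. In untreated cells it had 6.39, 5.86 and 5.80 in SP, against 6.10, 5.91 and 5.80 in non-SP cells. The values straddled the background level of 5.88 in every group. The SP minus non-SP difference was -0.13 after anti-EpCAM (-0.55 to 0.29) and 0.08 without it (-0.34 to 0.50), and anti-EpCAM minus untreated it was -0.18 in SP (-0.61 to 0.24) and 0.02 in non-SP cells (-0.40 to 0.45).

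The 16 intervals of the lead probe sets of Klf4, Bmi1, Nes and Msi1 in the 4 pairwise comparisons ran from -0.61 to 0.50, that is from 0.656-fold to 1.42-fold, so all lay inside 2-fold either way. So did the intervals of 90.3% to 96.5% of all 18194 genes, depending on the comparison. The treatment differences are to be read beside the median change of all genes, -0.12 in SP and -0.10 in non-SP cells. With arrays centred on their medians, the treatment difference of Klf4 was 0.18 in SP and 0.12 in non-SP cells and that of Bmi1 0.16 and 0.09, so the signs turned with the scaling. No direction is given for any of them.

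**Figure D2:**
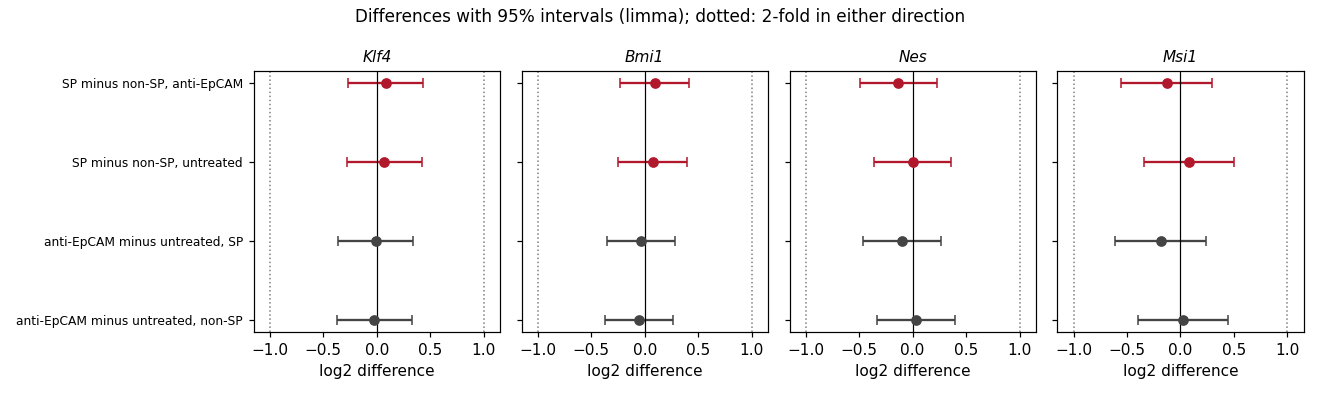
Log2 difference (point) and 95% interval (line) of the lead probe set of Klf4, Bmi1, Nes and Msi1 in the 4 pairwise comparisons, from limma on all 12 arrays. The fit has no block on the pairs. Every interval crosses 0 and stays between -0.61 and 0.50.

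Across all genes, limma called 0 of 18194 (0%) at an adjusted p under 0.05 in each of 7 comparisons. These are SP against non-SP after anti-EpCAM, without it and over both treatments, anti-EpCAM against untreated in SP, in non-SP and over both fractions, and the interaction, which asks whether the fraction difference changed with the antibody. At an unadjusted p under 0.05 there were 127, 4, 19, 835, 585, 461 and 43 genes, in this order. By the threshold alone 909.7 would be expected in each, more than any of these counts. For SP against non-SP and the interaction, this fit does not use the pairing of SP and non-SP arrays. The low counts there do not show that the fractions are alike. With the pairs as a replicate block there were 1311 for SP against non-SP after anti-EpCAM, 305 without it, 388 over both treatments and 1003 for the interaction. Of these, 1311 and 1003 lay above 909.7, and the adjusted counts stayed at 0. The SE of Klf4 for SP minus non-SP in untreated cells was 0.16 without the block and 0.10 with it. Of the 56 values of the lead probe sets of the 8 genes, 0 had an unadjusted p under 0.05. At an adjusted p under 0.05 the share called among the 8 genes, 0, is that of all genes. For the interaction the lowest unadjusted p among the 8 was 0.218.

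The pairs of an SP and a non-SP array of one number and treatment give a second view. For Klf4 the SP minus non-SP differences were 0.08, 0.26 and -0.10 after anti-EpCAM and -0.0032, 0.03 and 0.18 without it, a mean of 0.08 ± 0.13 (SD, n = 6 pairs, exact permutation p = 0.25). For Bmi1 they were 0.17, 0.27 and -0.17 after anti-EpCAM and -0.04, 0.02 and 0.24 without it, a mean of 0.08 ± 0.17 (SD, n = 6, exact permutation p = 0.281). Klf4 and Bmi1 were higher in SP in 4 of 6 pairs each.

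The mean pair difference of Nes was -0.07 ± 0.14 (SD, n = 6, exact permutation p = 0.344), with SP lower in 4 pairs and most of it from the anti-EpCAM pair numbered 2 at -0.34. That of Msi1 was -0.03 ± 0.24 (SD, n = 6, exact permutation p = 0.812), with 3 pairs lower, 2 higher and 1 identical. The smallest p that 6 pairs allow is 0.0312, and only where no pair is identical. With their identical pairs, Nanog, Sox2, Msi1 and Lin28a could not reach a p under 0.05 in this test. Nanog and Sox2 stood at the smallest exact permutation p open to them, 0.0625. Klf4, Bmi1, Nes and Pou5f1, which could reach it, had no p under 0.05. Of the 90 comparisons of the 15 probe sets within pairs, 6 held identical values, all in probe sets with a mean under 6.

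**Figure D3:**
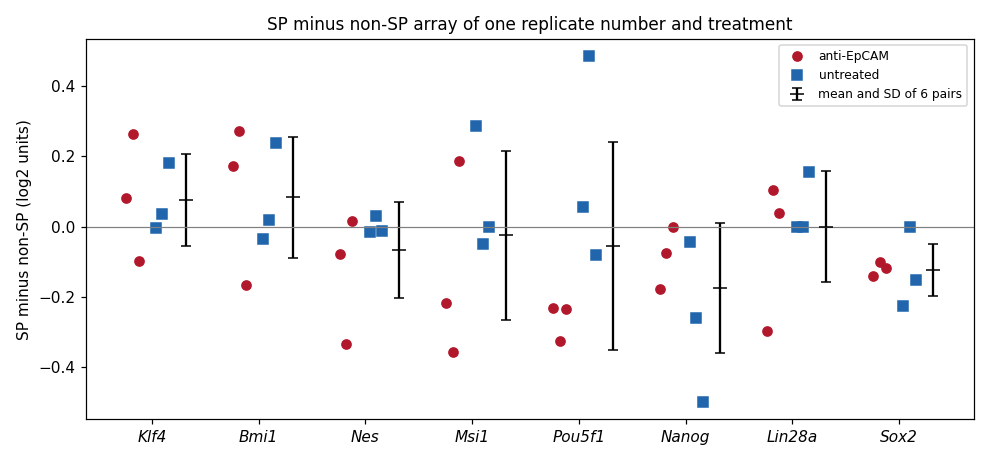
SP minus non-SP log2 difference of the lead probe sets in each of the 6 pairs of arrays of one number and treatment, with anti-EpCAM and untreated pairs in separate colours and bars for the mean and SD of 6 pairs. Nanog, Pou5f1, Sox2 and Lin28a are at background. For Klf4, Bmi1, Nes and Msi1 the points lie on both sides of 0.

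For the lead probe sets the SD over all 12 arrays was 0.12 for Bmi1, 0.14 for Klf4, 0.15 for Nes and 0.21 for Msi1, against a median SD of 0.24 over 11545 genes above background. Among these genes Bmi1 stood at percentile 4.28 of SD, Klf4 at 10.9, Nes at 15.2 and Msi1 at 38.0. The second probe sets, also above background on all 12 arrays, had an SD of 0.38 for Bmi1, 0.35 for Klf4 and 0.19 for Nes.

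Other probe sets of the same genes did not all follow the lead ones. The second Bmi1 probe set went with its lead over the 12 arrays at a Pearson r of 0.82, whereas the second of Klf4 went with its lead at 0.17. For Nes the second went with the lead at 0.38. These correlations are over arrays of 4 groups that share pairs and have no p. The second Msi1 probe set, with a mean of 3.90, and the third of Nes, with a mean of 3.96, were at background on all 12 arrays.

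The second Bmi1 probe set read 9.88, 9.66 and 9.42 in SP anti-EpCAM, against 9.42, 8.59 and 9.62 in non-SP anti-EpCAM cells. In untreated cells it read 9.57, 9.32 and 10.11 in SP, against 9.80, 9.45 and 9.75 in non-SP cells. The non-SP anti-EpCAM array numbered 2, one of the arrays with the high actin difference, was lowest, and the pair differences after anti-EpCAM were 0.46, 1.07 and -0.19. The SP minus non-SP difference after anti-EpCAM was 0.45 ± 0.27 (SE) in limma, with an unadjusted p of 0.126 and an adjusted p of 1. Its interval, -0.14 to 1.03, reached past 2-fold, as did that for anti-EpCAM minus untreated in non-SP cells, -1.05 to 0.13.

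The second Klf4 probe set read 11.45, 10.86 and 11.39 in SP anti-EpCAM, against 11.13, 10.50 and 11.33 in non-SP anti-EpCAM cells. In untreated cells it read 11.07, 11.01 and 10.52 in SP, against 11.50, 10.99 and 10.69 in non-SP cells. Its SP minus non-SP difference was 0.24 after anti-EpCAM and -0.19 without it, each with an SE of 0.27, so the probe sets of Klf4 gave no shared direction.

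The second Nes probe set was the one above background whose groups did not overlap between treatments. It read 6.74, 6.62 and 6.40 in SP anti-EpCAM, against 6.97, 6.78 and 6.98 in SP untreated cells. In non-SP cells it read 6.64, 6.81 and 6.67 after anti-EpCAM, against 7.07, 6.90 and 6.94 without it. All 3 anti-EpCAM arrays lay below all 3 untreated arrays in both fractions. Same-numbered SP and non-SP arrays deviated together, so the fractions are not independent of each other.

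The difference of that Nes probe set was -0.33 ± 0.15 (SE) in SP and -0.26 ± 0.15 in non-SP cells, with unadjusted p of 0.0515 and 0.105 and adjusted p of 1 and 0.972 in limma over all probe sets. Relative to the median change of all probe sets these were -0.21 and -0.16. With each array centred on its median the differences were -0.13 and -0.12, and the SP groups then overlapped, while after renewed quantile normalisation, at -0.21 and -0.08, the non-SP groups did. The lead Nes probe set differed by -0.10 and 0.03 in the same comparisons and its groups overlapped.

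The third Msi1 probe set, at background with a mean of 3.84, was also lower without overlap after anti-EpCAM in both fractions, and its groups overlapped after either other scaling. It differed by -0.39 in SP and -0.38 in non-SP cells. In limma over all probe sets the unadjusted p were 0.0413 and 0.0448 and the adjusted p 0.9998 and 0.972. As for Nes, the fractions are not independent here, and no difference is drawn from values at background. Of the 15 probe sets, 2 (13.3%) were thus lower without overlap in each fraction, against 8.29% of all probe sets in SP and 7.63% in non-SP cells. Higher without overlap were 0 of 15 in each, against 0.669% of all in SP and 1.33% in non-SP cells. Between SP and non-SP after anti-EpCAM, 1 of 15 was lower, Pou5f1 at background, and 0 higher, against 1.73% and 0.787% of all. In untreated cells 0 of 15 were higher and 0 lower, against 1.25% and 1.12% of all. With 15 probe sets, counts of 0 to 2 stand close to these shares.

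**Figure D4:**
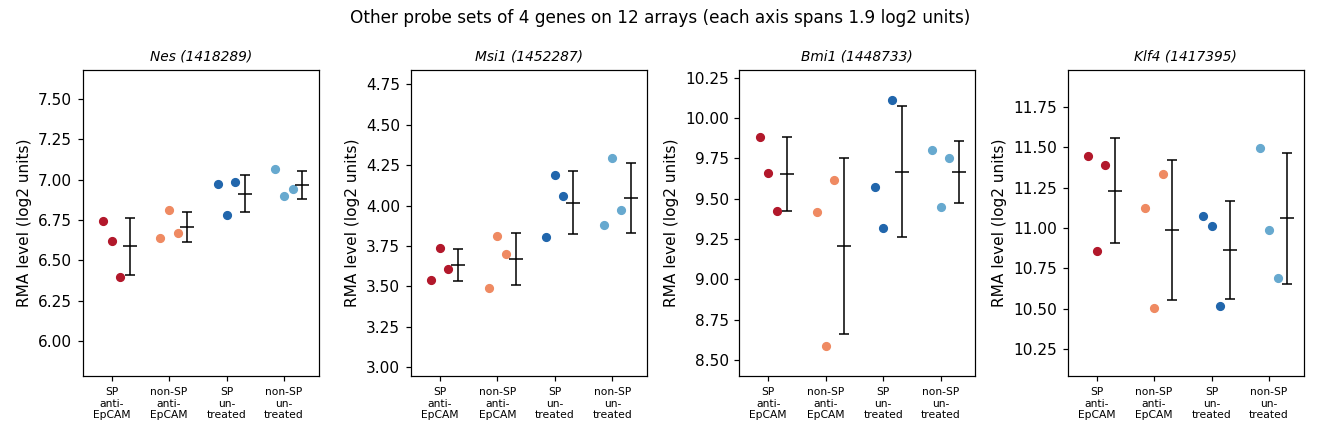
Log2 level on each array of other probe sets of Nes, Msi1, Bmi1 and Klf4 by group, each axis spanning 1.9 log2 units, with bars for the group mean and SD. The Nes points after anti-EpCAM lie at 6.40 to 6.81, below the untreated points at 6.78 to 7.07 within each fraction, and the lowest Bmi1 point, 8.59, is the non-SP anti-EpCAM array numbered 2.

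The genes around the 8 give their surroundings in these cells. Of 33 other genes of the pluripotency network 14 (42.4%) had a mean above background, against 63.5% of all genes. Among those were Tcf3, which as annotated here encodes the E proteins E12 and E47, at 10.5, Stat3, the LIF signal transducer, at 10.1, Rif1 at 9.28 and Lefty1, a Nodal antagonist, at 9.11. Markers of pluripotent cells in the list, named here after their values were seen, lay on both sides of that level. Zfp42 (Rex1), Tdgf1, Dppa2, Dppa4 and Sall4 were at background, whereas Esrrb at 6.57, Dppa5a at 6.81 and Fgf4 at 6.38 were above it on all 12 arrays and Utf1 at 6.25 and Gdf3 at 6.38 by their mean. All 15 of the LIF and BMP inputs lay above it, with Id3 at 12.8, Id1 at 12.1, Id2 at 11.3 and Socs3 at 11.3.

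Other members of the Sox, POU and Klf families were also read above background. Of 18 other Sox genes 9 were above background, with Sox4 at 11.4, Sox9, a factor of the developing lung tip, at 9.34 and Sox21 at 9.24. Of 10 other POU genes 4 were above, among them Pou6f1 at 7.78. Of 15 other Klf genes 13 were above, with Klf10 at 11.3, Klf9 at 10.97, Klf3 at 10.8 and Klf6 at 10.1.

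The partners of Bmi1 were all read. All 17 other genes of Polycomb complex 1 were above background, among them Cbx6 at 11.4, Yaf2 at 10.7, the ubiquitin ligase Rnf2 at 9.90 and Phc2 at 9.83, and so were all 11 of Polycomb complex 2, among them the histone-binding subunits Rbbp7 at 12.7 and Rbbp4 at 12.2. Cdkn2a, the locus that Bmi1 is known to repress and that encodes p16Ink4a and p19Arf, stood at 10.0. Its difference was -0.37 ± 0.45 (SE) in SP and -0.23 ± 0.45 in non-SP cells after anti-EpCAM, well within its error. The related inhibitors Cdkn1a (p21) at 12.1, Cdkn1b (p27) at 11.03 and Cdkn2c at 9.61 were above background too.

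For Lin28a, 11 of 14 genes of its let-7 axis were above background. Its paralog Lin28b was at 2.70, also at background, whereas Hmga2, a target that let-7 represses, was at 9.26, with the microRNA processing genes Drosha at 11.2 and Ago2 at 10.7. For Msi1, its paralog Msi2 was at 9.79 and its target Numb at 8.66, and 8 of 16 genes of the Musashi and neural list were above background. Nestin assembles with vimentin, and Vim stood at 14.0, with Krt19, a keratin of simple epithelia, at 11.7, and 9 of 16 other intermediate filament genes above background.

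**Figure D5:**
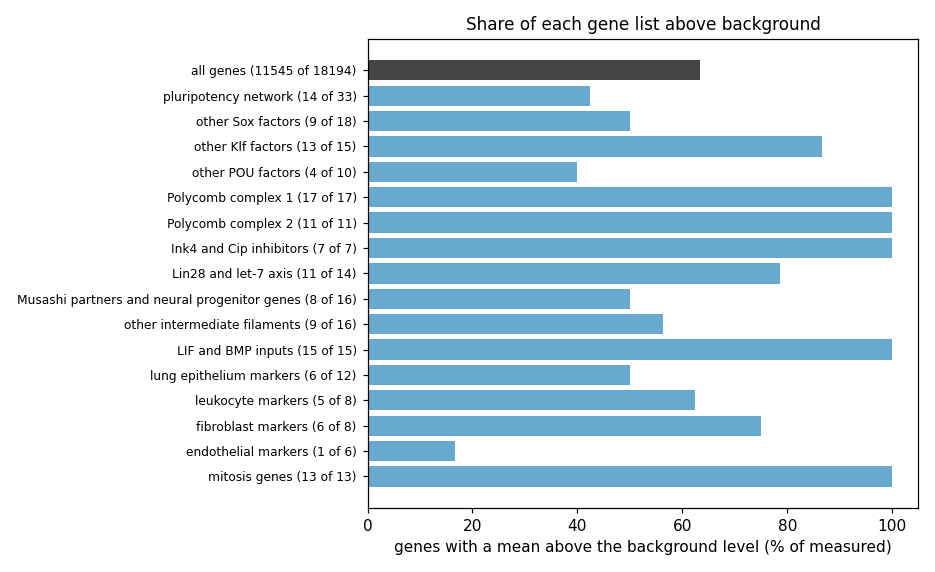
Percent of the measured genes in each list whose mean over 12 arrays lies above the background level of 5.88, with all 18194 genes (63.5%) for reference. Polycomb complexes, Ink4 and Cip inhibitors, LIF and BMP inputs and mitosis genes reach 100%, and the pluripotency network 42.4%.

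No gene of these lists passed the test in any of the 7 comparisons. Of the pluripotency network genes, 9 were above and 24 below 0 for SP minus non-SP after anti-EpCAM, with a median of -0.08, against 19 above and 14 below without it, with a median of 0.03. Of all 18194 genes, 7700 were above and 10494 below 0 after anti-EpCAM, against 9771 and 8423 without it. The medians of all genes were -0.03 and 0.01. Of the 33 network genes, 14 had a mean above background, so these counts include genes at background. The genes of Polycomb complex 1 stood 14 above and 3 below 0 after anti-EpCAM, with a median of 0.06, against 4 above and 13 below without it, with a median of -0.02. Other lists shifted as well. The other POU genes stood 2 above and 8 below 0 after anti-EpCAM, against 8 above and 2 below without it. The LIF and BMP inputs stood 12 above and 3 below, against 6 above and 9 below. The mitosis genes did not shift, with all 13 below 0 in both. Single genes of the network ranged from -0.36 to 0.30 after anti-EpCAM, and the difference between treatments was not tested for the lists.

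Genes whose level followed that of the 4 read genes most closely over the 12 arrays were named by the highest Pearson correlation among 11544 genes above background. For Klf4 these were Dph2 (0.93), Atp13a3 (0.92) and Zbtb40 (0.92), and for Bmi1 Nudt4 (0.94), Strn3 (0.92) and Nadk2 (0.92). For Nes these were Anapc1 (0.94), Kcnk7 (0.94) and Ppil3 (0.94), and for Msi1 Psg23 (0.94), Syt5 (0.94) and Slc52a3 (0.92). The arrays share pairs and scaling, the highest of many correlations were picked, and the values are a description.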

How the data were processed

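Total RNA (200 ng per sample, per the labels' protocols) was labelled with biotin and hybridised to Affymetrix mouse genome arrays. The table deposited by the authors holds log2 values from RMA, per the submitters' processing notes, with software and version not given in the sources used. Groups follow the labels, which call the samples biological replicates.

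Of 45101 probe sets, 34958 had 1 gene symbol, 932 several and 9211 none in the platform annotation. The probe set with the highest mean stood for each gene, without a filter on level. Differences were fitted with limma 3.58.1 in R 4.3.3 (lmFit and eBayes, 4 group means over 12 arrays, no block) and adjusted by Benjamini-Hochberg over all 18194 genes. The treatment comparison over both fractions used the mean of each pair of arrays. Pair differences were tested by exact sign-flip permutation. The rest used matplotlib 3.10.9, scipy 1.17.1, pandas 2.3.3 and numpy 2.4.6 under Python 3.11.15.

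The members and lists were chosen with earlier results of these data known. Named are the 8 genes with all probe sets, up to 4 genes of highest mean in each list, any gene past the threshold, and the 3 genes most correlated with each member above background. Other names, such as Zfp42, Esrrb, Lin28b, Nkx2-1 and Ptprc, were chosen for their roles after their values were seen. The lists name 229 genes, and 215 had a probe set, which for 2 was found by a newer or older symbol.

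Same-numbered SP and non-SP arrays of a treatment deviated together from their group means (r of 0.55 to 0.84 over genes), and so were taken as pairs from the data. Those of treated and untreated cells did not (r of -0.38 to -0.0054). On simulated data with 18194 genes and the real means and spreads, 2-fold changes were recovered in 53% of cases for SP against non-SP after anti-EpCAM and 56% without it, 4-fold changes in 93% and 95%. For anti-EpCAM against untreated the 2-fold share was 59% in SP and 55% in non-SP cells. The simulated arrays were drawn independently, without the shared deviations of the pairs. The shares for SP against non-SP may therefore differ from those on the real arrays. Alternatives were other scalings, only genes above background, all probe sets, other fits and left-out arrays. No other rule for the lead probe set was tried.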

Additional observations from a re-analysis of the deposited data

How the results depend on the processing

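The 20 differences of Klf4, Bmi1, Nes and Msi1 in the 4 pairwise comparisons and in SP against non-SP over both treatments kept their sign in 342 of 380 alternative values and turned in 38, spread over 15 of the 20. No alternative passed the threshold, with a lowest adjusted p of 0.667 and a largest size of 0.29, and the 127 alternatives of the 7 gene counts all gave 0 calls, with a lowest adjusted p of 0.212 for any gene. With the replicate block on the pairs, the lowest adjusted p was 0.667, for SP minus non-SP of Nes after anti-EpCAM, and the block changed no call. That difference, -0.13 with all arrays, was -0.022 without non-SP anti-EpCAM replicate 2 and -0.031 without both anti-EpCAM arrays numbered 2. With arrays centred on their medians, anti-EpCAM minus untreated turned to 0.18 for Klf4, 0.16 for Bmi1, 0.10 for Nes and 0.010 for Msi1 in SP and to 0.12 for Klf4 and 0.087 for Bmi1 in non-SP cells, and SP minus non-SP of Nes in untreated cells to -0.0045. Renewed quantile normalisation turned the treatment difference to 0.047 for Klf4, 0.042 for Bmi1 and 0.0047 for Msi1 in SP and to 0.056 for Klf4 and 0.066 for Bmi1 in non-SP cells. Without both anti-EpCAM arrays numbered 2, an alternative chosen after seeing the data, SP minus non-SP turned to -0.0096 for Klf4 after anti-EpCAM and to 0.032 for Msi1 over both treatments, and the treatment difference in non-SP cells to -0.12 for Msi1 and -0.078 for Nes. Leaving out 1 array at a time, SP minus non-SP in untreated cells ranged from -0.0098 to 0.19 for Klf4, -0.026 to 0.13 for Bmi1, -0.10 to 0.11 for Nes and -0.11 to 0.19 for Msi1. For Msi1 it ranged from -0.26 to 0.016 after anti-EpCAM and from -0.12 to 0.048 over both treatments. Anti-EpCAM minus untreated then ranged from -0.094 to 0.088 for Klf4, -0.091 to 0.065 for Bmi1 and -0.29 to 0.0017 for Msi1 in SP, and from -0.087 to 0.095 for Klf4, -0.12 to 0.15 for Msi1 and -0.078 to 0.14 for Nes in non-SP cells. Apart from the scalings, the cause of these turns was not tested. Signal over background limits Nanog, Pou5f1, Sox2, Lin28a and, in part, Msi1.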

Other observations

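Mitosis genes, which none of the 8 genes belongs to, all lay above background, among them Top2a, the DNA topoisomerase of dividing cells, at 12.1 and Ube2c at 11.9. All 13 were below 0 for SP minus non-SP, with a median of -0.30 after anti-EpCAM and -0.23 in untreated cells, and 0 of 13 passed the test in limma. Their mean level ranged from 9.34 to 10.6 in SP anti-EpCAM, against 10.4 to 10.6 in non-SP anti-EpCAM arrays, and from 10.0 to 10.7 in SP untreated, against 10.5 to 10.6 in non-SP untreated arrays, so the fractions overlapped.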
